A study of Mus musculus with 15 samples.

Results

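The aldehyde dehydrogenase (ALDH) and glutathione transferase (GST) genes were followed across 5 sorted populations of mouse mammary epithelial cells (MECs). Members were all genes whose array annotation gave a single symbol starting with Aldh and a digit, or with Gst and the class letter a, k, m, o, p or t. This took in 39 genes, 20 Aldh and 19 Gst, of 18194 genes with a probe set of their own. Where a gene had several probe sets, the one with the largest average log2 intensity across the 15 arrays stood for it. A gene was tested when this probe set exceeded the array's median intensity on at least 3 arrays, which held for 17 Aldh and 15 Gst genes, 32 members of 12108 genes tested.

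All mice were C57BL/6 females, and each population was measured on 3 whole-genome arrays. A basal fraction, luminal progenitors and mature luminal cells were sorted from lineage-negative cells of adult virgin wildtype glands, out of 3 cell suspensions. The basal fraction, enriched in mammary stem cells (MaSC), had CD24 and high CD29. Luminal progenitors (LP) had CD24, low CD29 and CD61, and mature luminal cells (ML) had CD24 and low CD29 without CD61. Alveolar luminal cells (AL) were lineage-negative, YFP-positive cells of Wap-Cre;R26Y mice at midgestation. The population labelled alveolar luminal stem/progenitor cells (ALP) held such cells of adult virgin Wap-Cre;R26Y mice. In this cross, Cre is driven by the promoter of the milk protein gene Wap, and recombination turns on a YFP reporter that stays on in all descendants of a cell, so the mark records past Cre expression rather than a present state. AL and ALP therefore differed from the other populations in genotype and in the way they were sorted, and AL also in pregnancy, which cannot be told apart from the populations themselves. The ALP arrays were also registered apart from, and later than, those of the other 4 populations. Whether they were processed at another time is not given in the sources used here, so a batch and the population cannot be told apart in any ALP comparison. How many animals gave each AL and ALP array is not given in the sources used here, and p-values measure the spread between arrays, part of which may be technical.

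ALDH enzymes oxidise aldehydes to carboxylic acids with NAD or NADP as the cofactor. The enzymes ALDH1A1, ALDH1A2 and ALDH1A3 make retinoic acid from retinaldehyde. ALDH activity measured in living cells is widely used to enrich stem and progenitor cells of the breast. Other family members clear aldehydes from alcohol, lipid peroxidation and fatty alcohols, or work in folate, proline, amino acid and gamma-aminobutyrate metabolism. GST enzymes join glutathione to electrophilic compounds, lipid peroxidation products among them, and fall into classes named by Greek letters (alpha, kappa, mu, omega, pi, theta).

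Intensities are in the arbitrary units of the deposited table, and log2 differences are those of the population named first minus the population named second. The luminal mean, with which MaSC was compared, is the average of the fitted LP and ML levels. Array medians lay between 136.8 and 209.9, the largest being that of ALP replicate 3, and correlations between arrays of a population ran from 0.943 to 0.989 except within ALP, where they ran from 0.901 to 0.970. Marker lists followed the labels in part. The mean log2 intensity of 10 basal markers was 13.17 to 13.28 in MaSC and 7.87 to 8.11 in LP, that of 7 luminal progenitor markers was highest in LP, AL and ALP (11.85 to 12.34), and that of 5 hormone-sensing luminal markers was highest in ML (12.57 to 12.82). The hormone-sensing list stood at 10.10 to 11.76 in MaSC and 9.90 to 11.08 in LP. 4 pan-luminal genes averaged 13.62 to 13.84 in MaSC, near the 13.92 to 13.95 of LP. 7 milk genes averaged 12.8 to 13.23 in AL, 8.12 to 10.26 in ALP and 7.44 to 8.17 in LP. 9 fibroblast genes averaged 11.86 to 12.48 in LP, 11.30 to 11.88 in AL and 12.23 to 13.32 in ALP, against 8.71 to 9.26 in MaSC and 5.65 to 6.23 in ML, where 7 of the 9 were below the array median on every array. ALP replicate 3 also stood apart by its leukocyte list (12.00, against 7.04 and 7.26 on the other ALP arrays), its endothelial list (10.85 against 7.82 and 8.80) and its basal list (11.84 against 9.55 and 9.31). Its fibroblast list (13.32 against 12.23 and 12.32) and its list of 6 adipocyte genes (9.19 against 7.86 and 8.04) were raised too. In AL the basal list stood at 10.59 to 10.96, the leukocyte list at 7.58 to 8.25 and the endothelial list at up to 7.35, where LP had 5.28 to 6.09 for leukocyte and 5.97 to 6.10 for endothelial genes and ML 6.93 to 7.68 for basal genes. Of the 10 basal markers, 8 were called higher in AL than in LP and 9 higher in AL than in ML, and the part of these lists in the AL differences given here was not tested.

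**Figure D1:**
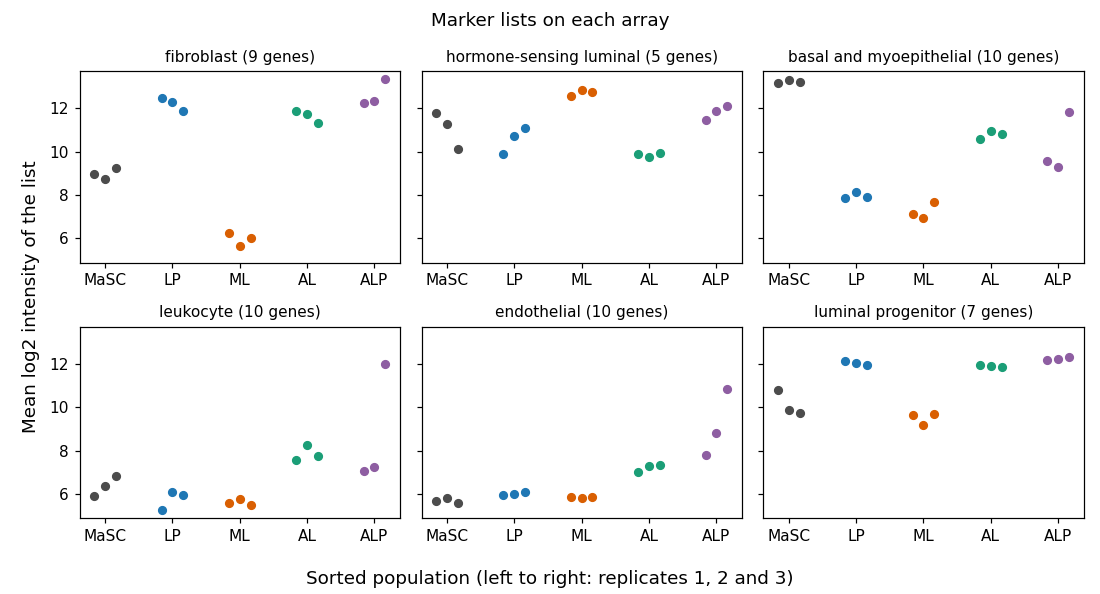
Mean log2 intensity (vertical axis) of 6 marker lists on each of the 15 arrays, by sorted population (horizontal axis), each point being 1 array. Fibroblast genes were at 5.65 to 6.23 in ML and at 11.30 or above in LP, AL and ALP, and ALP replicate 3 was at 12.00 for leukocyte genes.

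The mature luminal cells held the highest mean intensity of 14 of the 32 members tested, 9 of them Gst genes. AL held the highest mean of 8 members, MaSC of 7, ALP of 2 and LP of 1. The lowest mean lay in AL for 10 members, in MaSC and in LP for 8 each, in ML for 6 and in ALP for none. These are ranks of arithmetic means of intensity, and ranks of the log2 means used in the tests can differ. The 2 members with their highest mean in ALP were Aldh1a1 and Aldh3a1, both far brighter on ALP replicate 3 than on the other ALP arrays. By log2 mean, Aldh3a1 was higher in ML than in ALP, and Gsta4 was lower in LP than in AL. In all, 31 members differed in at least 1 of 7 comparisons at an adjusted p under 0.05 by limma, and 22 did so by 2-fold or more. Aldh7a1, a lysine-degrading enzyme of mitochondria, was called in no comparison with its brightest probe set, which ran from 2943 to 4420.0. A dimmer probe set of Aldh7a1 that also passed the filter read 271, 263 and 213 in ML, 147, 129 and 133 in LP and 124, 113 and 102 in AL. In MaSC it read 182, 178 and 219, and in ALP 130, 142 and 275. The table holds no detection calls, and in 26 of the 59 called member differences of 2-fold or more outside the MaSC comparison the lower population was under its array medians on all 3 arrays. The size of such a fold is uncertain, and with the lower population set at its array medians these 26 ran from 1.07-fold to 4.73-fold, a floor chosen after the values were seen. They belonged to Aldh1a7, Aldh1l1, Aldh1l2, Aldh3a1, Aldh3b1, Gsta2, Gstm7, Gsto2 and Gstp3. Gstm7 and Gstp3 passed the filter on dim genes only through the population in which they were highest.

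The comparisons with ML held larger shares of lower members than of lower genes overall. In LP against ML, 15 of the 32 members were lower and 7 higher, where 21.7% of all genes tested were called lower and 27.3% higher, and the median log2 difference was -0.60 over the members and 0.04 over all genes. In AL against ML, 14 members were lower and 9 higher, beside 24.8% of all genes lower and 28.7% higher (medians -0.32 and 0.03). In ALP against ML, 10 members were lower and 5 higher, beside 15.6% and 21.1% (medians -0.34 and -0.02). Without ALP replicate 1, 9 members were called in ALP against ML in place of 15 (4 higher, 5 lower), beside 18.8% of all genes higher and 9.45% lower. These 3 comparisons share the ML arrays, so they are not independent of each other. Gstp3, tested only because it was high in ML, was lower in all 3. Gstm7, tested only because it was high in AL, was higher in AL against ML. A fit with no filter on dim genes took in all 39 members and 18194 genes. In LP against ML, 6 members were then higher and 15 lower, beside 18.2% and 14.6% of all genes. In AL against ML these were 10 and 15, beside 19.9% and 17.4%, and in ALP against ML 5 and 8, beside 14.7% and 9.46%.

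In the other comparisons the shares of members lay nearer to those of all genes. In MaSC against the luminal mean, 8 members were higher and 11 lower, beside 22.6% of all genes higher and 29.9% lower, and 11 were called without MaSC replicate 3 in place of 19, while the share of all genes called went from 52.5% to 42.1%. In AL against LP, 11 members were higher and 7 lower, beside 21.3% and 24.2%, and 10 were called in place of 18 without LP replicate 2 or without AL replicate 2, while the share of all genes called went from 45.6% to 37.1% and 36.7%. The families are given apart here, with 8 Aldh genes higher and 1 lower, and 3 Gst genes higher and 6 lower. The difference between the families was not tested. In AL against ALP, 8 members were higher and 8 lower, beside 18.7% and 21.2%. Gstm7, tested only because it was high in AL, is among the higher members in both comparisons of AL. In ALP against LP, none was higher and 1 was lower, beside 3.58% of all genes higher and 3.97% lower, while 9 members had an unadjusted p under 0.05, of which 7 were higher. Medians of the members in these 4 comparisons were -0.13, 0.00, -0.12 and 0.22, against -0.09, -0.03, -0.02 and -0.02 for all genes.

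These splits depended on how the arrays were scaled. With every array centred on its own median, the all-gene medians moved to -0.20 in LP against ML, -0.11 in AL against ML and -0.43 in ALP against ML, and more of all genes were called lower. In LP against ML, 5 members were then higher and 21 lower, beside 15.4% of all genes higher and 35.4% lower. In AL against ML, 8 were higher and 16 lower, beside 21.3% and 30.6%, and in ALP against ML 3 were higher and 20 lower, beside 12.0% and 52.7%. The all-gene medians moved to -0.20 for MaSC against the luminal mean, 0.07 for AL and -0.19 for ALP each against LP, and 0.26 for AL against ALP, with 7 and 12, 12 and 4, 0 and 2, and 11 and 8 members higher and lower. The shares of all genes higher and lower were then 16.7% and 37.2%, 25.8% and 17.1%, 3.77% and 9.58%, and 36.5% and 12.8%.

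**Figure D2:**
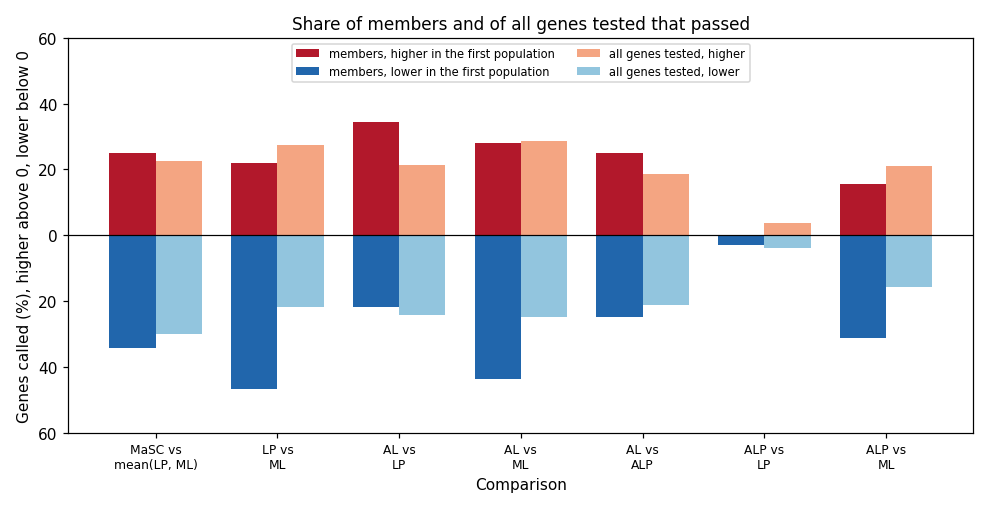
Percent of the 32 members (dark bars) and of all 12108 genes tested (light bars) called higher (above 0) or lower (below 0) in the first population of each of 7 comparisons (horizontal axis). The bars for lower members reach past those for all genes in LP against ML (15 of 32 beside 21.7%), AL against ML (14 of 32 beside 24.8%) and ALP against ML (10 of 32 beside 15.6%). These counts include Gstp3, which passed the filter only through ML.

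The Aldh1a genes did not share a pattern. Aldh1a1 was low in ML, and Aldh1a3 was highest in LP and, with its brightest probe set, lowest in AL. Aldh1a7, a close mouse relative of Aldh1a1, was high in ML and AL. Aldh1a2, which makes retinoic acid in the embryo, was dim, at 13.8 to 319 (31.9, 23.4 and 319 in ALP). Its highest value was ALP replicate 3, the array with the raised leukocyte, endothelial, basal, fibroblast and adipocyte lists. As these are bulk samples, fewer cells of a type and less RNA per cell cannot be told apart for any gene.

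Aldh1a1 and Aldh1a7 lie near each other on mouse chromosome 19, and their promoters are shown because the genes are close copies with opposite orders in LP and ML. The 250 bases before the start are given from RefSeq (build GRCm38.p6), with runs of at least 10 bases that match without a break in the alignment of both in capitals. The Aldh1a1 stretch is chr19:20601718-20601967 on the plus strand, before the second of its annotated starts, and the Aldh1a7 stretch is chr19:20727557-20727806 on the minus strand.
Aldh1a1: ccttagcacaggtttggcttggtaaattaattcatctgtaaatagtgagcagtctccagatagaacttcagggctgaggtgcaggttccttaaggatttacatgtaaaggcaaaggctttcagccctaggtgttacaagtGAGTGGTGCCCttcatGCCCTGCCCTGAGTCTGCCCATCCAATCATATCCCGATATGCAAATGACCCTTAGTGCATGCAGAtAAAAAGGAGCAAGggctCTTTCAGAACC
Aldh1a7: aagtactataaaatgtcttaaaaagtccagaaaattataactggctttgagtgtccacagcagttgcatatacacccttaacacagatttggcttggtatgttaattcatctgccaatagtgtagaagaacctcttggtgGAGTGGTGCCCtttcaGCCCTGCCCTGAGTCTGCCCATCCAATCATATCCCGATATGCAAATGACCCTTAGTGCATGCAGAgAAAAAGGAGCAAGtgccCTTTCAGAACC
The stretches matched at 185 of 272 aligned columns (68.0%), and the long runs held 100 bases, all of them in the part nearer to the start.

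Aldh1a1 intensity was 789.5, 863 and 994 for MaSC, 1672, 1237 and 724 for LP, 65.5, 40.6 and 225 for ML, 667, 701 and 393 for AL, and 831, 983 and 3435 for ALP. Every ML array was below every array of the other 4 populations, and ALP replicate 3 was the highest of all. ML replicates 1 and 2 lay under their array medians (137.2 and 136.8), so the size of the folds from ML is uncertain. LP exceeded ML 13.6-fold (3.76 ± 0.63 SE in log2 units, adjusted p = 5.82e-04), ALP exceeded ML 16.7-fold (4.06 ± 0.63 SE in log2 units, adjusted p = 5.13e-04) and AL exceeded ML 6.74-fold (2.75 ± 0.63 SE in log2 units, adjusted p = 0.00317). These sizes leaned on single arrays: without ML replicate 3, the brightest ML array, the log2 differences were 4.47, 4.77 and 3.46, and without ALP replicate 3 that of ALP against ML was 3.42. The difference between MaSC and the luminal mean (1.50, adjusted p = 0.037) was lost on leaving out any 1 of 7 arrays, namely each MaSC array, LP replicates 2 and 3 and ML replicates 1 and 2, with adjusted p from 0.0544 to 0.108. AL and ALP did not differ from LP by the test (log2 differences -1.01 and 0.30). The fibroblast, luminal progenitor, milk and basal lists were all lower in ML than in the other luminal populations, as Aldh1a1 was. Their part in the difference was not tested.

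Aldh1a7 intensity was 115, 59.5 and 88.1 for MaSC, 44.1, 74.7 and 149 for LP, 330.2, 321 and 683 for ML, 398, 388 and 317 for AL, and 95.4, 75.4 and 182 for ALP. ML and AL lay above LP and ALP with no overlap. The gene was 5.28-fold lower in LP than in ML (-2.40 ± 0.46 SE in log2 units, adjusted p = 0.00139) and higher in AL than in LP by 4.64-fold (2.21 ± 0.46 SE in log2 units, adjusted p = 0.00245). It was also 3.35-fold higher in AL than in ALP (adjusted p = 0.0109) and 3.81-fold lower in ALP than in ML (adjusted p = 0.00727). It was lower in MaSC than in the luminal mean (-1.10 ± 0.40 (SE), adjusted p = 0.0365), a call that was lost on leaving out any 1 of 5 arrays (MaSC replicate 2 or 3, LP replicate 2 or 3, or ML replicate 3), with adjusted p from 0.0540 to 0.156. Whether the probe sets of these similar genes also bind each other's transcripts was not tested.

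Aldh1a3, a source of ALDH activity in breast cancer cells, had intensities of 7603, 5598 and 3661 for MaSC, 11896, 12265 and 11258 for LP, 6229.5, 5669.6 and 7073 for ML, 3637, 1924 and 4237 for AL, and 10344, 10508 and 8617 for ALP. LP was above all other arrays, and AL was below every LP, ML and ALP array. AL was 3.81-fold lower than LP (-1.93 ± 0.29 SE in log2 units, adjusted p = 2.75e-04) and 3.16-fold lower than ALP (-1.66 ± 0.29 SE in log2 units, adjusted p = 9.14e-04). LP exceeded ML 1.87-fold (adjusted p = 0.0213), and MaSC was below the luminal mean (-0.68 ± 0.25 (SE), adjusted p = 0.0372). These sizes depended on the probe set. Means of 2 further probe sets were 7978 and 6166 in LP, 1629 and 1177 in ML, and 1434 and 979 in MaSC. In AL they were 1835 and 415, and in ALP 5862 and 3495, so AL was not the lowest with the first of the 2. Both probe sets gave AL below LP by -2.18 and -3.99 and below ALP by -1.68 and -3.12 on the log2 scale. They parted over ML, since AL was lower than ML with the brightest probe set (-1.02, adjusted p = 0.0101) but not with the second brightest, whose difference was 0.15 (adjusted p = 0.790).

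The folate dehydrogenases of cytosol and mitochondria ran in opposite directions across the luminal subsets. Aldh1l2, the mitochondrial 10-formyltetrahydrofolate dehydrogenase, read 1101, 1081 and 1892 for MaSC, 325, 336 and 287 for LP, 67.3, 42.1 and 63.9 for ML, 278, 384 and 270.3 for AL, and 360.1, 353 and 415 for ALP. MaSC was above and ML below every array of the remaining populations. MaSC exceeded the luminal mean 9.81-fold (3.29 ± 0.20 SE in log2 units, adjusted p = 8.04e-07), and LP, AL and ALP exceeded ML 5.57-fold, 5.42-fold and 6.63-fold (adjusted p = 1.44e-05, 6.30e-06 and 8.09e-06). AL, ALP and LP did not differ from each other by the test, with log2 differences of -0.04, 0.25 and -0.29. LP, AL and ALP were also the luminal populations with the raised fibroblast list (11.30 to 13.32, against 5.65 to 6.23 in ML and 8.71 to 9.26 in MaSC). Their luminal progenitor, milk and basal lists were above those of ML too, and the part of these lists in the differences was not tested.

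Aldh1l1, the cytosolic enzyme of the same reaction, had values of 260.2, 107 and 207 for MaSC, 103, 92.4 and 47.3 for LP, 642, 698 and 502 for ML, 172, 168 and 148 for AL, and 94.9, 155 and 448 for ALP. ML lay above all other arrays. LP was 7.95-fold lower than ML (-2.99 ± 0.50 SE in log2 units, adjusted p = 5.77e-04) and AL 3.74-fold lower (-1.90 ± 0.50 SE in log2 units, adjusted p = 0.00724). ALP was 3.24-fold lower than ML (adjusted p = 0.0207), with a log2 difference of -2.33 without ALP replicate 3 and of -1.21 without ALP replicate 1. The call was lost on leaving out ALP replicate 1 or 2 or ML replicate 1 or 2, with adjusted p from 0.0566 to 0.0853.

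Aldh2, the mitochondrial enzyme that clears acetaldehyde, was 7026, 6935 and 8037 for MaSC, 5959, 5439 and 5402 for LP, 2617, 3264 and 2922 for ML, 5441, 5015 and 4587 for AL, and 4896, 4183 and 6709 for ALP. ML was below all other arrays. The differences from ML were 0.94 for LP, 0.78 for AL and 0.82 for ALP on the log2 scale (adjusted p = 4.84e-04, 0.00121 and 0.00172), and MaSC exceeded the luminal mean 1.81-fold (adjusted p = 3.25e-04).

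Of the dehydrogenases of fatty and lipid-derived aldehydes, Aldh3a2, Aldh3b1 and Aldh3b2 had their highest mean in ML. Aldh3a1 had arithmetic means of 595 in ALP, where replicate 3 read 1238, and of 587 in ML. On the log2 scale its ALP level was not above that of ML (-0.29, not called). Aldh3a2, the fatty aldehyde dehydrogenase of the endoplasmic reticulum, read 4915, 3822 and 2782 for MaSC, 2377, 3104 and 3279 for LP, 9199.9, 9317 and 8664 for ML, 2424, 2843 and 2189.6 for AL, and 3420.5, 4720.3 and 5639 for ALP. ML was above every other array, LP was 3.13-fold lower (-1.65 ± 0.22 SE in log2 units, adjusted p = 1.35e-04), AL 3.66-fold lower (-1.87 ± 0.22 SE in log2 units, adjusted p = 2.83e-05) and ALP 2.01-fold lower (-1.01 ± 0.22 SE in log2 units, adjusted p = 0.00439). AL was also lower than ALP (-0.86 ± 0.22 (SE), adjusted p = 0.00899).

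Aldh3b1, which oxidises aldehydes from lipid peroxidation, was 348, 139 and 90.1 for MaSC, 158, 137 and 139.5 for LP, 740.2, 721 and 688 for ML, 94.8, 109 and 97.9 for AL, and 207, 212 and 451 for ALP. ML was again the highest without overlap, and AL lay below every other array but MaSC replicate 3. LP was 4.96-fold and AL 7.13-fold lower than ML (adjusted p = 7.79e-04 and 1.25e-04). The lower values of ALP against ML (-1.41, adjusted p = 0.0185) and of AL against ALP (-1.43, adjusted p = 0.0154) were called with all arrays. The first was lost on leaving out ALP replicate 1 or 2 or ML replicate 1 or 2 (adjusted p from 0.0510 to 0.0700) and the second without ALP replicate 3 (-1.06, adjusted p = 0.0543).

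Aldh3b2 read 555, 236 and 19.5 for MaSC, 32.5, 82.0 and 234 for LP, 1330.4, 1268 and 923 for ML, 769.9, 1073 and 724 for AL, and 174, 488 and 611 for ALP. ML and AL were high on every array, while LP and MaSC spread widely, MaSC from 19.5 to 555. LP replicates 1 and 2 lay under their array medians (158.4 and 165.7), so the size of the folds from LP is uncertain. LP was 13.6-fold lower than ML (-3.76 ± 1.04 SE in log2 units, adjusted p = 0.0107) and AL 9.87-fold higher than LP (3.30 ± 1.04 SE in log2 units, adjusted p = 0.0217). Without LP replicate 1 these log2 differences were -3.06 and 2.60, and without LP replicate 3 they were -4.49 and 4.03. The second was not called on leaving out LP replicate 1 or 2 or AL replicate 2, with adjusted p from 0.0547 to 0.0874.

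Aldh3a1, best known as an abundant enzyme of the cornea, read 712, 39.4 and 45.6 for MaSC, 64.5, 62.5 and 90.3 for LP, 985, 402 and 375 for ML, 49.4, 39.7 and 71.9 for AL, and 366, 180.4 and 1238 for ALP. LP and AL were low throughout, ML and ALP were high, and MaSC replicate 1 stood far above the other MaSC arrays. Differences were -2.89 for LP against ML, -3.35 for AL against ML and -3.06 for AL against ALP on the log2 scale (adjusted p = 0.0284, 0.0126 and 0.0266). The first was lost on leaving out any 1 of 5 arrays (each LP array, or ML replicate 1 or 2), with adjusted p from 0.0505 to 0.0984, and the second without ML replicate 1 (adjusted p = 0.0502). The third was lost without AL replicate 1 or 2 or ALP replicate 3, with adjusted p from 0.0647 to 0.0917, and was -2.30 without ALP replicate 3 and -3.69 without ALP replicate 2.

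Of the enzymes of proline, amino acid and gamma-aminobutyrate metabolism, Aldh5a1, Aldh18a1, Aldh4a1 and Aldh6a1 had their highest mean in AL, and Aldh7a1 its highest in MaSC and its lowest in AL. Aldh5a1, the succinate semialdehyde dehydrogenase of gamma-aminobutyrate breakdown, was 846, 509 and 423 for MaSC, 800.4, 747 and 769.7 for LP, 1438, 1492 and 1458 for ML, 2881, 2658 and 2651 for AL, and 679, 861 and 1024 for ALP. AL was above every other array and ML next, with no overlap between ML and the other virgin populations. AL exceeded LP 3.53-fold (1.82 ± 0.21 SE in log2 units, adjusted p = 4.94e-05), ALP 3.24-fold (1.70 ± 0.21 SE in log2 units, adjusted p = 1.02e-04) and ML 1.87-fold (0.90 ± 0.21 SE in log2 units, adjusted p = 0.00356).

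The 2 genes of proline metabolism were both highest in AL on average but differed in the virgin luminal subsets. Aldh18a1, which makes the proline precursor pyrroline-5-carboxylate, read 3843, 4071 and 4499.7 for MaSC, 4299.6, 3890.3 and 3749.9 for LP, 2034, 1830.5 and 1869 for ML, 4685, 5323 and 4703 for AL, and 3246, 3275 and 2805 for ALP. ML was lowest and ALP next lowest, without overlap. LP exceeded ML 2.08-fold (1.06 ± 0.10 SE in log2 units, adjusted p = 1.16e-05) and AL exceeded ML 2.56-fold (1.36 ± 0.10 SE in log2 units, adjusted p = 7.59e-07). Aldh18a1 was the only member called between ALP and LP, 1.28-fold lower in ALP (-0.36 ± 0.10 SE in log2 units, adjusted p = 0.0459). No member was called between ALP and LP on leaving out any 1 of 12 arrays, that is, any but MaSC replicate 1, MaSC replicate 3 and ALP replicate 1, and 5 were called without ALP replicate 1. Aldh4a1, which takes the same intermediate on to glutamate, was 482, 331 and 529.9 for MaSC, 197, 206 and 203 for LP, 364, 458 and 391 for ML, 652, 541 and 418 for AL, and 284, 251 and 362 for ALP. LP was lowest without overlap, by 1.99-fold against ML and 2.61-fold against AL (adjusted p = 0.00196 and 2.46e-04), so that Aldh18a1 was lower and Aldh4a1 higher in ML than in LP.

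Aldh16a1 had intensities of 496, 330.3 and 478 for MaSC, 497, 478 and 515 for LP, 750.1, 632 and 626 for ML, 999, 1095 and 937 for AL, and 445, 683 and 621 for ALP. AL was above all other arrays, 2.03-fold above LP (1.02 ± 0.18 SE in log2 units, adjusted p = 7.41e-04). Aldh9a1, an enzyme of carnitine synthesis, was above LP and ALP in AL (0.77 and 0.55, adjusted p = 0.00314 and 0.0211) and spanned 2756 to 6573. Aldh6a1, of valine and pyrimidine breakdown, differed least among those called, at most 0.33 for AL against LP (adjusted p = 0.0475). The dim members were the mitochondrial Aldh1b1, at 65.9 to 194, and Aldh8a1, at 4.51 to 56.9, which exceeded the array median on 2 and 0 arrays.

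**Figure D3:**
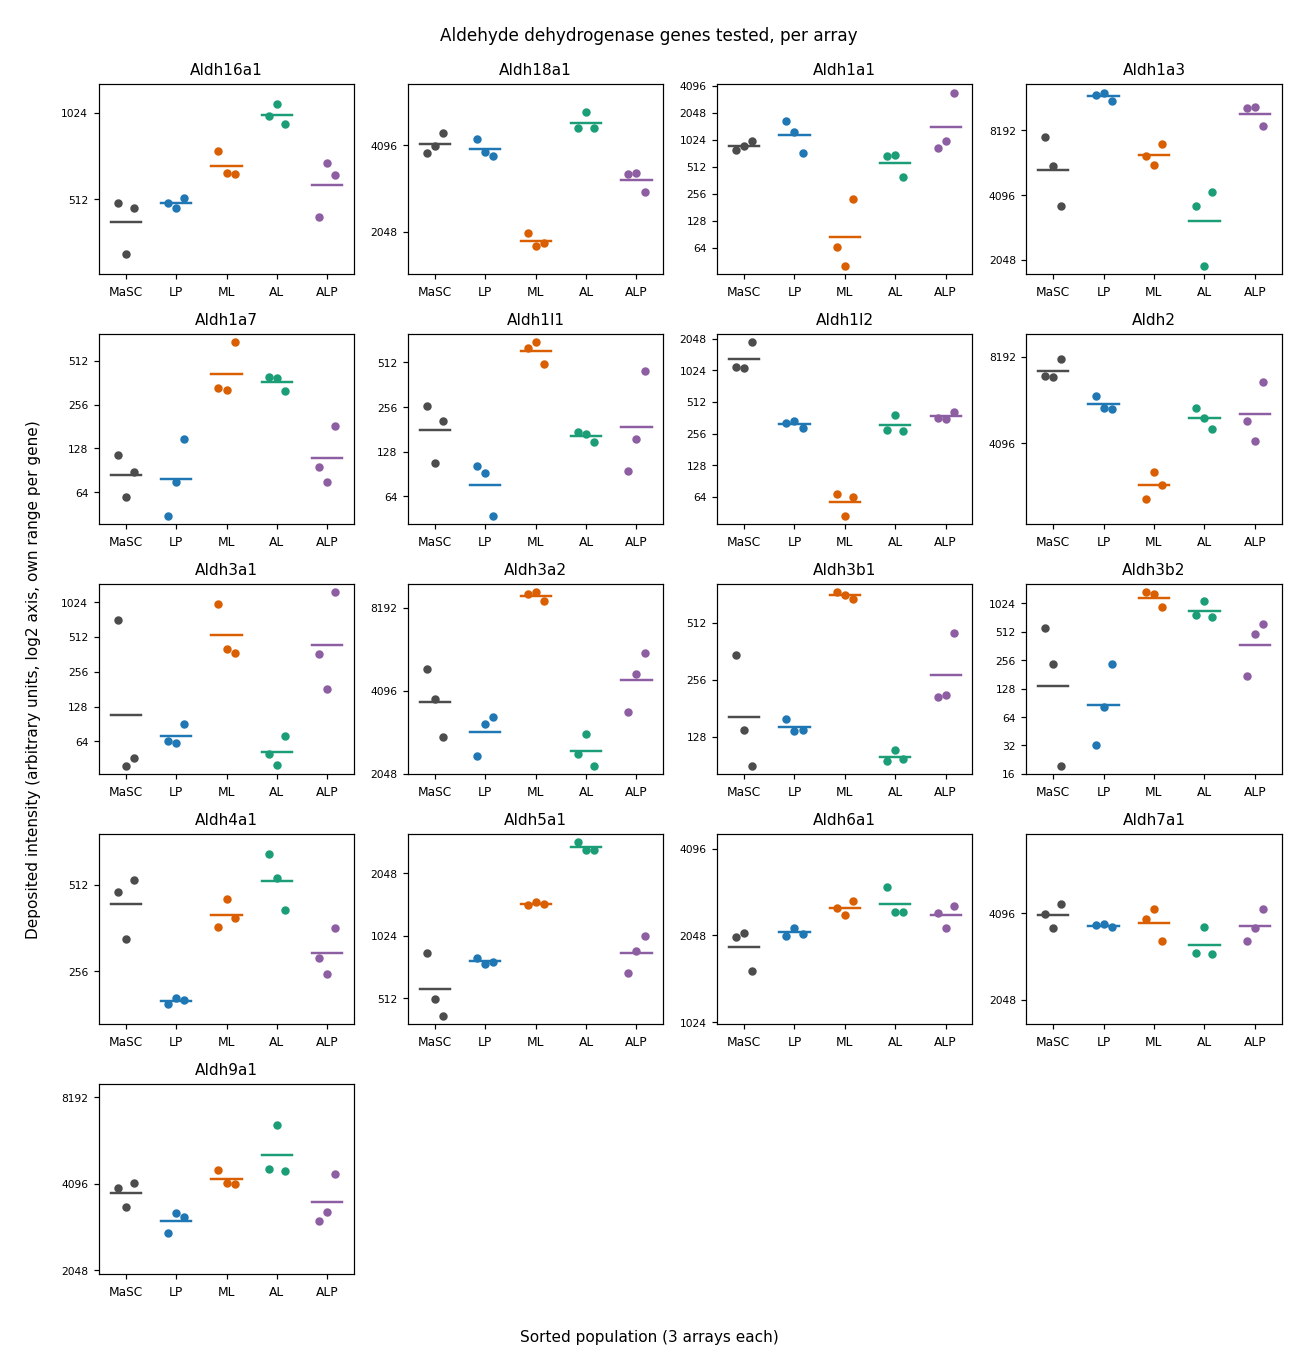
Intensity on each array (vertical axis, log2 scale with its own range in each panel) of the 17 Aldh genes tested, by population (horizontal axis), with replicates 1 to 3 from left to right and lines at the geometric mean of 3 arrays. Aldh1a1, Aldh1l2, Aldh2 and Aldh18a1 have their lowest points in ML, and Aldh3a2, Aldh3b1 and Aldh1l1 their highest.

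Among the alpha class, Gsta4, which conjugates the lipid peroxidation product 4-hydroxynonenal, was high in ML and Gsta2 was high in AL. Gsta4 intensity was 4742, 5147 and 3116 for MaSC, 621, 2058 and 1237 for LP, 8707, 12217 and 6173 for ML, 1184, 1350.3 and 1343 for AL, and 1782, 2847 and 3971 for ALP. ML was above every other array, and LP and AL were low, LP being 7.46-fold (-2.90 ± 0.42 SE in log2 units, adjusted p = 2.06e-04) and AL 6.74-fold (-2.75 ± 0.42 SE in log2 units, adjusted p = 1.83e-04) lower. ALP was 3.19-fold lower than ML (adjusted p = 0.00881).

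Gsta2 read 62.3, 60.4 and 26.6 for MaSC, 67.7, 52.7 and 90.4 for LP, 239, 222 and 224 for ML, 664, 455 and 529 for AL, and 96.1, 136 and 86.1 for ALP. AL was highest, ML next, and the remaining 3 populations low, without overlap between these 3 tiers. AL exceeded LP 7.92-fold (2.98 ± 0.31 SE in log2 units, adjusted p = 2.51e-05), ALP 5.22-fold (2.38 ± 0.31 SE in log2 units, adjusted p = 1.42e-04) and ML 2.38-fold (1.25 ± 0.31 SE in log2 units, adjusted p = 0.00534), and LP was 3.33-fold below ML (adjusted p = 9.12e-04). Gsta3 was not tested, since its brightest probe set passed the array median on 2 arrays only, with 236, 246 and 145 in AL and 30.0 to 61.0 in LP. Its other probe set read 285, 472 and 229 in AL, 90.3, 23.7 and 70.1 in LP and 94.3, 24.1 and 57.2 in ML, and these values are given with no test. A probe set shared by Gsta1, Gsta2 and a further gene was left out, and the share of near-identical alpha transcripts in the Gsta2 signal was not tested.

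Gstk1, the kappa enzyme of mitochondria and peroxisomes, was lowest in LP and highest in ML, where it read 4686, 5515 and 5404 against 2462, 2600.2 and 3083 in LP. LP was 1.92-fold lower than ML (-0.94 ± 0.14 SE in log2 units, adjusted p = 2.38e-04), and AL and ALP were also lower than ML (-0.56 and -0.54, adjusted p = 0.00512 and 0.00985).

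The mu class, whose genes sit together on mouse chromosome 3, did not move as a block. Gstm2 was lowest and Gstm7 highest in AL. Gstm2 intensity was 1885, 2584 and 2688 for MaSC, 1798, 1584 and 1348 for LP, 2100.5, 3702 and 4056 for ML, 850.5, 697 and 501 for AL, and 1506, 1574 and 6038 for ALP. AL was below all other arrays, 4.73-fold below ML (-2.24 ± 0.46 SE in log2 units, adjusted p = 0.00152) and 3.64-fold below ALP (-1.86 ± 0.46 SE in log2 units, adjusted p = 0.0074). Without ALP replicate 3, at 6038, the difference from ALP was -1.21 (adjusted p = 0.00778). The lower value in AL than in LP (-1.23, adjusted p = 0.0459) was lost on leaving out any 1 of 11 arrays, all but ML replicate 1 and the ALP arrays, with adjusted p from 0.0520 to 0.146.

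Gstm7 read 128, 121 and 205 for MaSC, 91.9, 146 and 100.3 for LP, 127, 132 and 137 for ML, 408, 302 and 263 for AL, and 67.7, 92.4 and 196 for ALP. All AL arrays were above all others. The gene exceeded the array median on 4 of 15 arrays, namely those of AL and MaSC replicate 3, so it was tested only because it was high in AL. In a fit with no filter on dim genes, the log2 difference of AL was 1.53 from LP, 1.28 from ML and 1.58 from ALP (adjusted p = 0.00633, 0.0129 and 0.00643). With LP, ML and ALP set at their array medians, AL was 1.97-fold, 2.32-fold and 1.74-fold higher.

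Gstm1, the main liver mu enzyme, was lower in AL than in LP (-0.62, adjusted p = 0.0486) and ALP (-0.85, adjusted p = 0.0138), with 3384, 2952 and 2527 in AL and 4416, 3903 and 8571 in ALP. Gstm5 was highest in MaSC at 5696 to 6207 and lowest in ML at 3102 to 3554, without overlap with the other populations, and LP exceeded ML 1.51-fold (adjusted p = 2.22e-04). Gstm4 was below the luminal mean in MaSC (-0.83, adjusted p = 0.00402) and below ML in AL (-0.70, adjusted p = 0.0202). Gstm3 and Gstm6 did not pass the array median on any array and ran from 8.06 to 64.5 and 9.94 to 45.1.

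The omega genes, neighbours on chromosome 19 whose enzymes reduce dehydroascorbate, differed from each other. Gsto2 read 230.0, 43.2 and 101 for MaSC, 166, 163 and 155 for LP, 559, 325 and 282 for ML, 26.5, 33.9 and 22.5 for AL, and 134, 211 and 164 for ALP. AL was below every other array, 13.6-fold below ML (-3.77 ± 0.47 SE in log2 units, adjusted p = 4.42e-05), 5.92-fold below LP (-2.57 ± 0.47 SE in log2 units, adjusted p = 0.00109) and 6.12-fold below ALP (-2.61 ± 0.47 SE in log2 units, adjusted p = 0.00118). These AL values were well under the AL array medians of 147.5 to 158.5, and with AL set at these medians the folds were 2.45 for ML and 1.07 for LP. MaSC was lower than the luminal mean (-1.29 ± 0.41 (SE), adjusted p = 0.0196), by -1.89 without MaSC replicate 1 and by -0.68 without MaSC replicate 2, and the call was lost without MaSC replicate 2 or 3 (adjusted p = 0.111 and 0.0552). Gsto1 was highest in MaSC, at 7965, 8792 and 8172, 1.55-fold above the luminal mean (0.63 ± 0.07 SE in log2 units, adjusted p = 4.93e-05), and ran from 4775 to 5204 in AL.

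In the pi class, Gstp3 was highest in ML and Gstp1 varied little. Gstp3 read 156, 31.2 and 20.0 for MaSC, 29.3, 25.4 and 44.8 for LP, 666, 304 and 279 for ML, 48.3, 38.8 and 27.7 for AL, and 41.7, 77.8 and 235 for ALP. ML was above all other arrays, and of the rest only ALP replicate 3 exceeded its array median, so the gene was tested only because it was high in ML. In a fit with no filter on dim genes, LP differed from ML by -3.58 and AL by -3.36 on the log2 scale (adjusted p = 0.00365 and 0.00396), and with LP and AL set at their array medians ML was 2.36-fold and 2.54-fold higher. The difference of ALP from ML was -2.07 (adjusted p = 0.0471 with the filter and 0.0649 without it), and its call was lost on leaving out any 1 of 12 arrays (adjusted p from 0.0543 to 0.176), all but MaSC replicates 1 and 3 and ALP replicate 3. Without ALP replicate 3 it was -2.75 (adjusted p = 0.0118). Gstp1, the pi enzyme common in epithelia, spanned 7744 to 11074 and was called lower than ML in LP, AL and ALP by -0.34, -0.29 and -0.27 on the log2 scale.

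The theta genes split by population as well. Gstt1 read 3322, 3482 and 3942 for MaSC, 2875, 2909.6 and 2424 for LP, 1189, 1991 and 2428 for ML, 692, 864 and 589.8 for AL, and 1953, 1462 and 3606 for ALP. AL was below every other array, 3.86-fold below LP (-1.95 ± 0.31 SE in log2 units, adjusted p = 4.72e-04), 2.53-fold below ML (-1.34 ± 0.31 SE in log2 units, adjusted p = 0.00351) and 3.08-fold below ALP (-1.62 ± 0.31 SE in log2 units, adjusted p = 0.00186), and MaSC was above the luminal mean (0.69, adjusted p = 0.0493).

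Gstt2 and Gstt3 were instead highest in ML and lowest in MaSC. Gstt2 read 3049, 1453 and 915 for MaSC, 3236, 2525 and 3787 for LP, 5199, 5251 and 4917 for ML, 2168, 2931 and 1926 for AL, and 3068, 2749 and 3533 for ALP. MaSC was 2.51-fold below the luminal mean (-1.33 ± 0.29 SE in log2 units, adjusted p = 0.00289) and AL 2.22-fold below ML (-1.15 ± 0.34 SE in log2 units, adjusted p = 0.0132), the latter with an adjusted p of 0.0509 without AL replicate 3. Gstt3 read 942, 463 and 207 for MaSC, 1024, 621 and 887 for LP, 1779, 2142 and 2433 for ML, 1251, 1169 and 999 for AL, and 1019, 1051 and 1511 for ALP. ML was above all other arrays, LP was 2.54-fold below it (-1.35 ± 0.42 SE in log2 units, adjusted p = 0.0195), and MaSC was 2.94-fold below the luminal mean (-1.55 ± 0.36 SE in log2 units, adjusted p = 0.00397). The first of these calls was lost on leaving out LP replicate 2, ML replicate 2 or ML replicate 3, with adjusted p from 0.0505 to 0.0737. Gstt4 was dim, at 20.0 to 73.3, and passed the array median on no array.

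**Figure D4:**
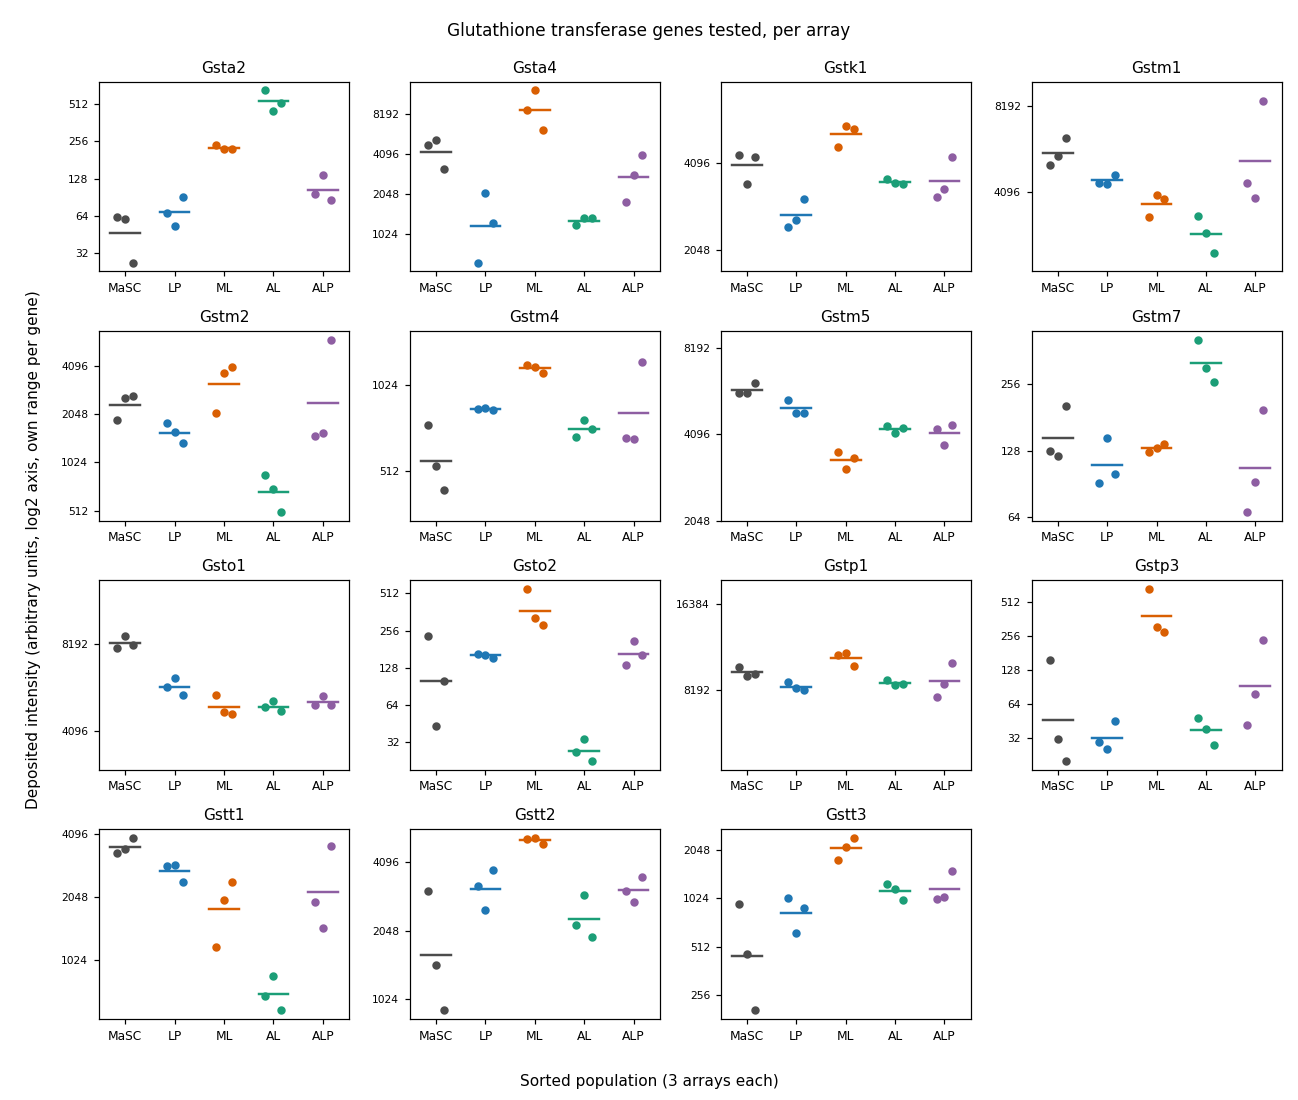
Intensity on each array (vertical axis, log2 scale with its own range in each panel) of the 15 Gst genes tested, by population (horizontal axis), with replicates 1 to 3 from left to right and lines at the geometric mean of 3 arrays. Gsta4, Gstp3 and Gstt3 have their highest points in ML, Gsta2 and Gstm7 in AL, and Gstm2, Gsto2 and Gstt1 their lowest in AL.

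Members that were high in ML also varied among the arrays of other populations. 10 members were at least 2-fold lower in LP than in ML, namely Aldh1a7, Aldh1l1, Aldh3a1, Aldh3a2, Aldh3b1, Aldh3b2, Gsta2, Gsta4, Gstp3 and Gstt3. MaSC replicate 1 was the brightest MaSC array for 9 of the 10 and MaSC replicate 3 the dimmest for 7, and the hormone-sensing marker list stood at 11.76, 11.28 and 10.10 on MaSC replicates 1, 2 and 3. In LP, replicate 1 was the dimmest array for 4 and replicate 3 the brightest for 6 of the 10, with the list at 9.90, 10.73 and 11.08. In ALP, replicate 3 was the brightest for 9 and replicate 1 the dimmest for 7, with the list at 11.46, 11.87 and 12.09. The same counts were not made over all genes, so they are not read as particular to these members. The part of ML-like cells in these arrays was not tested.

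ALP replicate 3 was the brightest ALP array for 26 of the 32 members and exceeded both other ALP arrays more than 2-fold for 7, namely Aldh1a1, Aldh1l1, Aldh3a1, Aldh3b1, Gstm2, Gstm7 and Gstp3. It also had the largest array median (209.9, against 161.7 and 180.2 on the other ALP arrays). The share of all genes brightest on this array was not counted, so these counts are not read as particular to the members. The leukocyte, endothelial, basal, fibroblast and adipocyte lists of ALP replicate 3 were raised as given above, and their part was not tested. Without this array, 20 members were called between ALP and ML (5 higher, 15 lower), beside 20.3% of all genes higher and 20.9% lower. Between AL and ALP, 14 were then called (8 higher, 6 lower), beside 21.8% and 18.8%, and between ALP and LP 0, beside 1.76% and 2.24%. For ALP against LP, the methods' t-test gave 4 members at an unadjusted p under 0.05 and 0 after Benjamini-Hochberg adjustment, with all arrays.

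**Figure D5:**
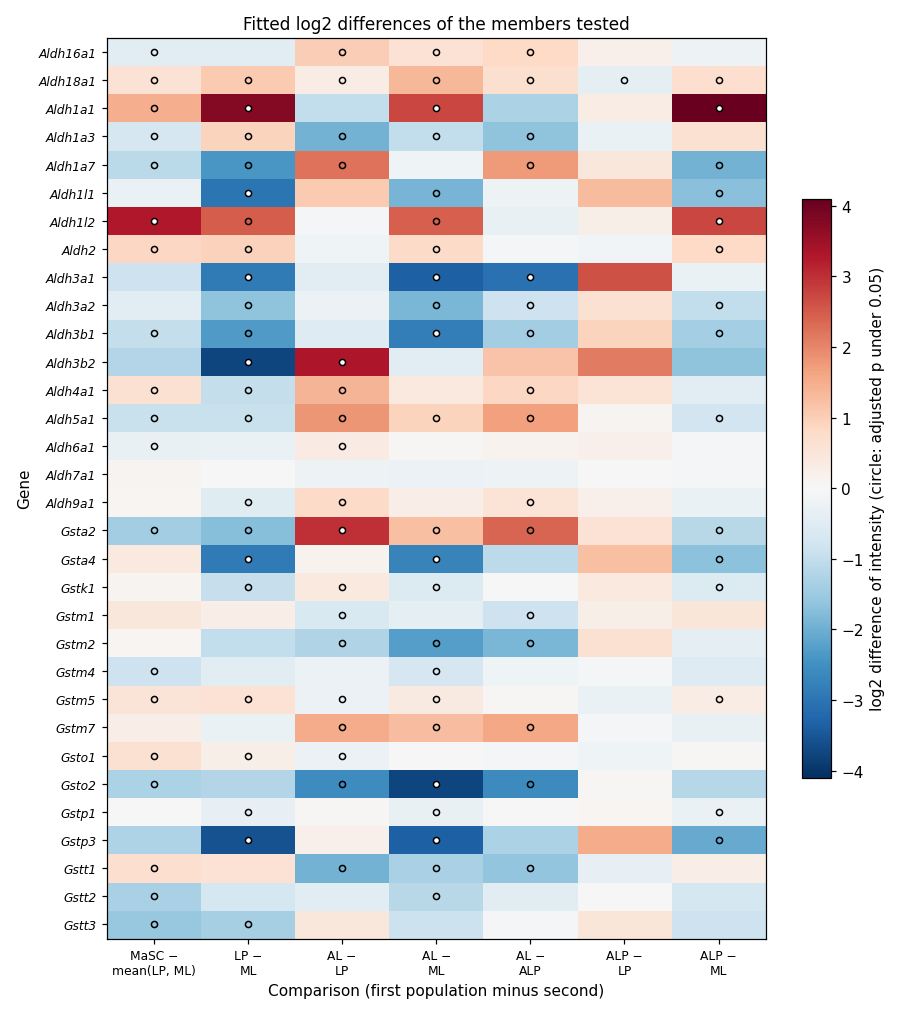
Fitted log2 differences (colour, first population minus second) of the 32 members tested (vertical axis) in 7 comparisons (horizontal axis), with circles where the adjusted p was under 0.05. The values run from -3.77 (Gsto2, AL against ML) to 4.06 (Aldh1a1, ALP against ML), and the ALP against LP column holds 1 circle, at Aldh18a1.

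The genes that supply and use glutathione were counted from the same fit. For these and the lists that follow, the shares of all genes called are those given above for each comparison. The list counts were not remade with arrays centred on their medians, and no list was tested as a set. Of 14 genes of glutathione synthesis and recycling tested, 4 were higher and 5 lower in LP than in ML, and 5 were higher and 5 lower in AL than in LP. In AL against LP the largest falls were those of Chac1, which degrades glutathione (-3.32 ± 0.38 SE in log2 units, adjusted p = 4.49e-05), and Slc7a11, the cystine carrier that feeds glutathione synthesis (-1.77 ± 0.32 SE in log2 units, adjusted p = 9.77e-04), and the largest rises those of Oplah and Ggt6 (1.37 and 1.17). With AL set at its array medians, which lay above all 3 AL values, Slc7a11 was 1.04-fold higher in LP than in AL. Slc7a11 was also 4.9-fold higher in MaSC than in the luminal mean (adjusted p = 6.06e-05), with 413, 661 and 762 for MaSC, 254, 130.1 and 118 for LP and 94.6, 74.3 and 114 in ML. In AL against ALP, 6 of the 14 were lower and the other 8 were not called. Gclc, the catalytic subunit of the rate-limiting enzyme of glutathione synthesis, was the most reduced in AL against ML (-1.54 ± 0.18 SE in log2 units, adjusted p = 2.42e-05).

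Of 6 glutathione peroxidases tested, 3 were higher in MaSC than in the luminal mean and the other 3 were not called, led by Gpx2 (3.58 ± 0.29 SE in log2 units, adjusted p = 4.75e-06) and Gpx7 (2.48 ± 0.63 SE in log2 units, adjusted p = 0.00658). Gpx2 read 474, 1322 and 1202 for MaSC, 49.9, 50.9 and 74.4 for LP, 116, 97.9 and 88.7 in ML and 214, 350.1 and 279 in AL, and was also 4.8-fold higher in AL than in LP (adjusted p = 2.94e-04). With LP set at its array medians this fold was 1.70. Gpx3, the secreted peroxidase, was lower in AL than in ML (-1.60 ± 0.24 SE in log2 units, adjusted p = 1.55e-04). Gpx7 and Gpx8, of the endoplasmic reticulum, were higher in LP, AL and ALP than in ML (log2 differences 2.41, 2.22 and 3.15 for Gpx7 and 2.27, 1.96 and 2.59 for Gpx8), as the fibroblast, luminal progenitor, milk and basal lists were. With ML set at its array medians, the folds of Gpx7 were 2.72, 2.39 and 4.56. Of 6 other glutathione transferases, outside the classes followed here, Mgst2 was lower in LP and AL than in ML (-2.15 and -2.26, adjusted p = 0.0129 and 0.00865), and 2 were higher and 3 lower in LP against ML. With LP and AL set at their array medians, Mgst2 was 2.25-fold and 2.41-fold lower than in ML.

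NRF2 (Nfe2l2) is the transcription factor known for inducing glutathione and detoxification genes. Of 21 genes of that pathway tested, 9 were higher and 1 lower in LP than in ML, beside 27.3% of all genes higher and 21.7% lower. The median log2 difference of the 21 was 0.22, where that of the members was -0.60 and that of all genes 0.04. Nqo1, a quinone reductase induced by NRF2, was 5544, 5313 and 5374 in LP, 1283, 865 and 2074 in ML and 567, 769 and 676 in AL. LP exceeded ML 4.1-fold (2.03 ± 0.26 SE in log2 units, adjusted p = 1.02e-04) and AL was 8.12-fold below LP (-3.02 ± 0.26 SE in log2 units, adjusted p = 7.42e-06). In AL, 8 of the 21 were lower and 3 higher than in LP, and 10 were lower and 2 higher than in ALP, led in both by Abcc3, an exporter of conjugates (-3.36 and -3.56, adjusted p = 3.51e-06 and 2.70e-06). In ALP against ML, 7 were higher and 1 lower, while 10 of the 32 members were lower and 5 higher, beside 21.1% of all genes higher and 15.6% lower.

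Genes before and after the ALDH1A step were mixed too. Of 11 retinoid enzymes and carriers tested, 2 were higher and 6 lower in LP than in ML. Rbp7, a retinol-binding protein, was 10-fold higher in LP (3.32 ± 0.52 SE in log2 units, adjusted p = 3.62e-04) and Crabp2, which carries retinoic acid, 3.6-fold higher (1.85 ± 0.17 SE in log2 units, adjusted p = 1.09e-05), while Rbp4 and Dhrs3 were lower (-2.07 and -1.16). Cyp26b1, which degrades retinoic acid, was higher in MaSC than in the luminal mean (1.88 ± 0.58 SE in log2 units, adjusted p = 0.0171), and Rbp4 was lower in AL than in ML (-3.31 ± 0.70 SE in log2 units, adjusted p = 0.00192). With LP and AL set at their array medians, which lay above all their Rbp4 values, Rbp4 was 1.31-fold and 1.40-fold lower than in ML. With ML set at its array medians, Rbp7 was 5.35-fold higher in LP.

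Of 8 alcohol dehydrogenases and aldehyde reductases or oxidases tested, 5 were lower in LP than in ML and 3 were lower in AL than in ML, and the rest were not called in these comparisons. Adh1, an alcohol and retinol dehydrogenase, read 379, 111 and 49.7 for MaSC, 569, 369 and 397 for LP, 698, 821 and 1225 in ML, 53.2, 55.4 and 51.0 in AL and 399, 468 and 1997 in ALP. It was lower in AL than in ML (-4.06 ± 0.69 SE in log2 units, adjusted p = 3.98e-04) and than in ALP (-3.76 ± 0.69 SE in log2 units, adjusted p = 0.00126), by 5.87-fold and 4.76-fold with AL set at its array medians, which lay above all 3 AL values. Aox1, an aldehyde oxidase, was 1324, 948 and 791 in ML against 25.8, 51.2 and 40.8 in AL, and was lower in AL (-4.72 ± 0.50 SE in log2 units, adjusted p = 1.31e-05), by 6.59-fold with AL set at its array medians.

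Promoter windows of 300 bases (250 before and 50 after the start, RefSeq, GRCm38.p6) were held for 31 of the 39 members, 40 windows in all. The core letters of the antioxidant response element bound by NRF2, TGACNNNGC on either strand, stood in 5 of the 40 windows (12.5%), beside 12.4% of all 32851 windows. They were those of Aldh1a2, Aldh9a1, Gsta3, Gstm5 and Gstm7. The letters TGTGGT on either strand, the core of sites bound by RUNX factors, stood in 9 member windows (22.5%), beside 16.8% of all windows. A match of letters is a description of the window and says nothing of binding in these cells.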

How the data were processed

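RNA of 15 sorted samples was amplified and labelled with the NuGEN Ovation V2 system and hybridised to Affymetrix Mouse Genome 430 2.0 arrays. The authors deposited 1 intensity per probe set and array, on a linear scale, normalised with dChip. The version of dChip, its expression model and baseline array, and the scan dates were not given in the sources used here, so batches could not be examined. Of 45101 probe sets, 34958 carried exactly 1 gene symbol in the platform annotation, 932 several and 9211 none, and only those with 1 symbol were kept. That removed 3 probe sets naming a member, and 62 remained. Intensities below 1 were set to 1 and log2 was taken.

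A linear model with the 5 population means as coefficients was fitted over all arrays and genes tested, using lmFit and eBayes of limma 3.58.1 under R 4.3.3, and p-values were adjusted by Benjamini and Hochberg over 12108 genes within each of 7 comparisons, which share arrays. Tests were two-sided, and genes with an adjusted p under 0.05 are called higher or lower. Folds are antilogs of log2 differences, with standard errors (SE) on the log2 scale. The precision is limited by the number of arrays. The fit was tested on simulated data.

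The members, gene lists and tests were chosen with earlier results of these data known. Array values are given for members called with a difference of at least 2-fold in 1 comparison. Genes outside the members are those with the largest called log2 differences of their list, at most 2 in each direction and comparison. Alternatives covered the filter, an added constant of 16, quantile normalisation, median centring, the choice of probe set, the arrays fitted, eBayes options, the replicate number as a block, the methods' t-test and leaving out each array. All columns of the table belonged to a sample. Promoters came from a RefSeq table of GRCm38.p6.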

Additional observations from a re-analysis of the deposited data

How the results depend on the processing

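The 66 member and comparison pairs called with at least 2-fold change kept direction and call in 1709 of 1814 recomputations, lost the call in 103 and reversed in 2, both for Aldh1a3 in AL against ML with its second-brightest probe set (0.15 on the log2 scale). Leaving out 1 array lost 62 calls and reversed none. An array outside the compared populations cannot change the log2 difference, so in those runs only the call could change. The same holds for the fit with no filter, the compared arrays alone, the eBayes options, the replicate block and the t-test. The number of kept directions is therefore no measure of how stable the directions are. The number of members called on leaving out each array ran from 11 (without MaSC replicate 3) to 20 for MaSC against the luminal mean (19 with all arrays), from 17 to 24 for LP against ML (22), from 10 (without LP replicate 2 or AL replicate 2) to 19 for AL against LP (18), from 20 to 24 for AL against ML (23), from 14 to 17 for AL against ALP (16), from 0 to 5 for ALP against LP (1) and from 9 (without ALP replicate 1) to 20 for ALP against ML (15). For ALP against LP the count was 0 without the filter on dim genes, with quantile normalisation, with the mean of probe sets, with the second-brightest probe set, with the compared arrays alone and with the methods' t-test after Benjamini-Hochberg adjustment, 2 with median centring or with trend and robust eBayes options, and 4 with the unadjusted t-test. For ALP against ML it was 23 with median centring and 4 with the adjusted t-test, for MaSC 10 with the unadjusted and 4 with the adjusted t-test, and for AL against ALP 6 with the adjusted t-test. With 3 arrays a population, small differences in dim genes lay beyond what could be called.

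Whether a replicate number marks 1 of the shared suspensions is not given in the sources used here, and the numbers were not used to pair the samples. Deviations from the population means correlated between arrays of MaSC, LP and ML with the same number at r from -0.01 to 0.17, and between arrays with other numbers at -0.12 to 0.08, and not every array correlated best with its own number. With the replicate block over all arrays, 22 members were called in LP against ML, 23 in AL against ML, 13 in ALP against ML, 16 in MaSC against the luminal mean, 14 in AL and 0 in ALP each against LP, and 17 in AL against ALP. With the replicate block over MaSC, LP and ML only, 18 were called for MaSC and 20 in LP against ML, where Aldh3b2 and Gstt3 (adjusted p = 0.0628 and 0.0701) were not called.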
